A study of Mus musculus with 9 samples.

Results

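The second phase of GATA1-driven red cell maturation was described here by comparing G1E-ER4 cells at 24 h of estradiol with G1E-ER4 cells at 13 h. The comparison rests on 4 of the 9 libraries in the series, chosen by their labels, with 2 libraries at each time (title numbers 1502 and 1663 at 13 h, 1865 and 1867 at 24 h). G1E is a mouse erythroid precursor line that lacks GATA1, and G1E-ER4 is the same line expressing a GATA1-ER fusion, which estradiol activates. Both groups were G1E-ER4 cells in 100 nM estradiol, and both grew in medium with serum, epoetin and conditioned medium that supplies kit ligand, so these agents were present at both times. A model of this kind is a single immortal line whose GATA1 is a fusion made by a transgene. No run of title numbers held both 13 h and 24 h libraries, so the time and the run cannot be told apart from these 4 libraries alone. Where a value with the run as a block is given, it was bridged through the G1E-ER4 libraries at 0 h of estradiol, which lie in each of those runs (1501, 1662 and 1866).

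PRO-seq marks engaged RNA polymerase by a run-on with a labelled nucleotide, so reads over a gene body count polymerases at work on it rather than the stored message. The labels name the assay PRO-seq but enter the molecule as genomic DNA, and the values are read here as PRO-seq counts. In red cell maturation GATA1 and its partners first shut off precursor genes such as Gata2 and Kit and turn on erythroid genes. Later stages build the membrane skeleton and haem, while the cells stop dividing, make fewer ribosomes and clear their organelles.

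The labelled cell type was checked against erythroid markers, and Gata1, Klf1, Tfrc, Slc4a1, Alas2, Ank1 and Epor carried reads in all 4 libraries. Gene-body totals were 73290342 and 84779260 reads at 13 h and 90192788 and 97942959 reads at 24 h, and the 9 libraries spanned 37830789 to 139945759 reads. The first principal component of all 9 libraries held 61.6% of the variance and the second 22.6%. Levels are scaled counts (CPM) after TMM scaling, whose factors were 1.01 at 13 h and 0.828 and 0.824 at 24 h. Summed markers of granulocytes and monocytes came to 7.33 and 5.09 CPM at 13 h and 7.73 and 3.88 CPM at 24 h, and those of lymphocytes to 5.12 and 4.76 CPM at 13 h and 3.16 and 5.96 CPM at 24 h. Cebpa, Ctsg, S100a8, S100a9, Cd2, Cd79b and Il7r had no read in these 4 libraries. Mast cell markers summed to 70.6 and 57.5 CPM at 13 h and 113 and 33.9 CPM at 24 h, with Fcer1a, Gzmb, Mcpt4 and Mcpt8 at 0, and megakaryocyte markers to 447 and 426 CPM at 13 h and 536 and 378 CPM at 24 h, with Gp1bb and Ppbp at 0. Of the tested genes of these 4 lists, 0 of 5, 1 of 7, 0 of 9 and 1 of 12 rose and 1, 1, 2 and 4 fell between the times (granulocyte and monocyte, lymphocyte, mast cell and megakaryocyte lists), and plain library totals gave 0 increases in each and the same decreases.

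Between 13 h and 24 h, 1617 of 13825 genes rose (11.7%) and 1732 fell (12.5%) in edgeR's quasi-likelihood test at an adjusted p under 0.05. The median log2 fold change was -0.05. Among called genes, 403 rose and 1084 fell by at least 2-fold. The genes that rose included red cell membrane, haem, mitophagy and ubiquitin genes. Those that fell included feedback genes of the ERK pathway, DNA replication genes and most ribosome genes. With plain library totals in place of TMM the median moved to -0.34 and the split to 641 genes up and 3082 down, so the changes below are relative to the TMM centre. Whether replicates were separate cultures is not stated in the labels, and the p-values then measure no more than the spread among these libraries, which may be technical. With the run as a block, 2 residual degrees of freedom remained, 22 genes rose (0.159%) and 37 fell (0.268%), 3343 of the 3349 called genes (99.8%) kept their sign, and 58 kept their call. A coarser block of 2 sets of title numbers (1501 to 1663, 1864 to 2005) left 6 genes higher (0.0434%) and 24 lower (0.174%). Without 24 h replicate 2 the counts were 671 up and 562 down, without 13 h replicate 2 they were 903 up and 980 down, and without 13 h replicate 1 they were 1054 up and 1276 down.

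**Figure D1:**
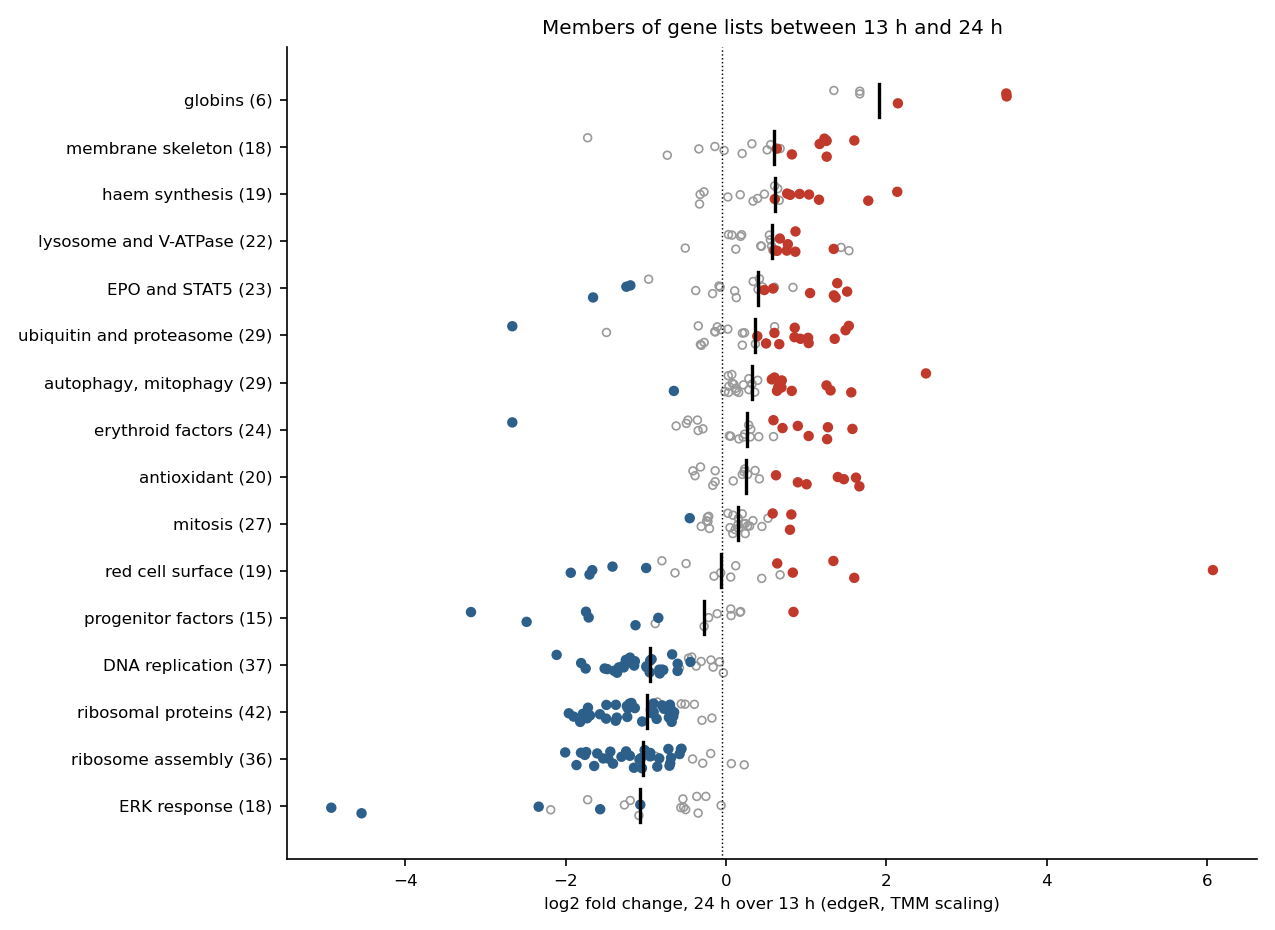
The log2 fold change of each tested gene, 24 h over 13 h, is plotted for each gene list, with called genes filled (red higher, blue lower at 24 h), genes not called open, a black bar at the list's median and a dotted line at the median of all 13825 genes. The DNA replication, ribosome assembly and ribosomal protein lists lie almost wholly to the left, and the membrane skeleton, haem synthesis and lysosome lists have medians between 0.58 and 0.61.

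Genes of the red cell surface changed in both directions between 13 h and 24 h. Slc4a1 encodes band 3, the anion exchanger and main membrane anchor of the red cell. It had 6.91 and 3.61 CPM at 13 h and 353 and 356 CPM at 24 h, against 0.391, 0.994 and 1.08 CPM at 0 h. Both 24 h libraries stood far above both 13 h libraries, and this was the largest increase of any gene that met the naming rule (log2 fold change 6.08 ± 0.71, adjusted p = 0.00124). Gypc, whose product ties the skeleton to the membrane, had 173 and 242 CPM at 13 h and 568 and 482 CPM at 24 h (1.34 ± 0.18, adjusted p = 0.00203). The groups did not overlap for either gene, as for 8591 of all tested genes (62.1%). Of the 19 tested genes of the surface list, 5 rose and 5 fell (4 and 6 with plain library totals), with a list median of -0.07. Cd47 (0.83), which protects cells from phagocytosis, and Ermap (0.64), which carries the Scianna blood group, also rose. The 5 that fell were adhesion molecules and transporters. Bcam, the Lutheran laminin receptor, had 28.3 and 25.1 CPM at 13 h and 6.82 and 7.15 CPM at 24 h (-1.94 ± 0.32, adjusted p = 0.00347). Cd44, the hyaluronan receptor whose loss from the surface is used to stage erythroblasts, had 90.8 and 99.4 CPM at 13 h and 38.1 and 21.7 CPM at 24 h (-1.67 ± 0.25, adjusted p = 0.00246). Icam4 (the LW blood group adhesion gene), the nucleoside transporter gene Slc29a1 (-1.42) and the urea transporter gene Slc14a1 (-1.70) fell as well. Slc4a1 was at 5.46, adjusted p = 0.0514 with the run as a block. The list had 3 increases without 13 h replicate 2 or 24 h replicate 2, and 3 decreases without either 13 h library.

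In the skeleton beneath that surface 8 of 18 tested genes were higher and 0 lower, with a median of 0.60, and plain library totals gave 4 higher and 1 lower. Epb4.1 encodes protein 4.1, which joins the skeleton to the membrane. It had 590.5 and 615 CPM at 13 h and 1881 and 1777 CPM at 24 h, so both 24 h values were above 13 h by about the same step (1.60 ± 0.15, adjusted p = 0.000670, and 1.76, adjusted p = 0.0463 with the run as a block). Add1 (adducin, 1.25 ± 0.16), Mpp1 (p55, 1.26 ± 0.32), Tmod1 (tropomodulin, which caps actin, 1.23 ± 0.39) and Dmtn (dematin, 1.17 ± 0.20) rose by similar amounts. Tmod3 (0.82) and the ankyrin gene Ank1 (0.63) rose less. Ank1 lost its call without 13 h replicate 2 (0.43, adjusted p = 0.141) or 24 h replicate 2 (0.59, adjusted p = 0.0935), and with plain library totals. The list's count of increases ran from 3 to 8 when single libraries were left out, being 3 without 13 h replicate 2 and 4 without 24 h replicate 2.

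Haem synthesis genes rose without any called decrease: 8 of 19 tested, with a median of 0.61. Alas2, the erythroid enzyme that starts the pathway, had 172 and 92.3 CPM at 13 h and 464 and 699 CPM at 24 h, against 0.655, 1.28 and 0.777 CPM at 0 h. All libraries at 24 h lay above all at 13 h, which themselves lay far above 0 h (2.14 ± 0.47, adjusted p = 0.0110, and 2.50, adjusted p = 0.112 with the run as a block). Slc25a37, which encodes mitoferrin and brings iron into mitochondria, had 129 and 179 CPM at 13 h and 496 and 558 CPM at 24 h (1.78 ± 0.16, adjusted p = 0.000670, and 1.89, adjusted p = 0.0489 with the run as a block). Fech, which inserts the iron in the last step, had 375 and 417 CPM at 13 h and 821 and 949.9 CPM at 24 h (1.16 ± 0.25, adjusted p = 0.00962). Alad, which makes porphobilinogen, had 165 and 178 CPM at 13 h and 354 and 351 CPM at 24 h (1.04 ± 0.14). Urod (0.92), Clpx (0.80), Abcb10 (0.76) and Snx3 (0.61) completed the called members. The pathway gene Cpox (0.61) and the housekeeping synthase gene Alas1 (-0.33) were not called. Alas2 lost its call without 13 h replicate 2 (1.76, adjusted p = 0.0666) or 24 h replicate 2 (1.81, adjusted p = 0.0651), Fech lost its own without 13 h replicate 1 (adjusted p = 0.0516) or 24 h replicate 2 (adjusted p = 0.0538), and the list had 3 increases without either of those libraries. Plain library totals gave 4 increases and 2 decreases in the list.

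Globin genes had few reads in this table. Hbb-b1 had 0.868 and 0.443 CPM at 13 h and 4.69 and 10.1 CPM at 24 h, and the adult beta-globin signal was higher in both 24 h libraries (3.50 ± 0.75, adjusted p = 0.0116). The copy listed as Hbb-bs had the same reads, and Hbb-b2 and Hbb-bt shared theirs (4.54 and 2.49 CPM at 13 h and 9.14 and 13.2 CPM at 24 h, 1.67 ± 0.64, adjusted p = 0.0839), so beta-globin copies were not told apart and their values are uncertain. Hba-a1 and Hba-a2 had 0 reads in every library, and their near-identical sequences make this value uncertain. Of 6 tested globin entries 3 rose, 0 fell and the median was 1.91, 5 rose without either G1E library, and 0 rose without 13 h replicate 2 or 24 h replicate 2 (Hbb-b1 at 3.09, adjusted p = 0.0702, and 2.84, adjusted p = 0.0694). Hbb-b1 with the run as a block was at 0.76, adjusted p = 0.854.

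The genes that handle iron outside haem were mixed, with 5 of 21 higher, 2 lower and a median of 0.08, which turned to 1 higher, 3 lower and -0.21 with plain library totals. With no expression filter 2 rose and 2 fell. Ncoa4, the receptor that delivers ferritin to lysosomes, had 75.8 and 135 CPM at 13 h and 284 and 281 CPM at 24 h (1.42 ± 0.32, adjusted p = 0.0127). Tfrc, the transferrin receptor, had 779 and 847 CPM at 13 h and 1161 and 1495 CPM at 24 h (0.71 ± 0.19, adjusted p = 0.0243). Glrx5 (1.00) and Hscb (0.85), both of iron-sulfur cluster assembly, rose, while Tfr2, the second transferrin receptor (-0.76), fell. Ncoa4 lost its call without 13 h replicate 1 (1.08, adjusted p = 0.0638) or 24 h replicate 2 (1.43, adjusted p = 0.0513). Tfrc lost its call without either 13 h library or 24 h replicate 2 (0.51, adjusted p = 0.143) and with plain library totals (adjusted p = 0.0964), and the iron list had 0 increases without 13 h replicate 1, 1 without 24 h replicate 2 and 3 without 0 h replicate 3, 13 h replicate 2 or 24 h replicate 1. Genes against oxidative damage rose in 7 of 20 cases and fell in 0, with a median of 0.25 (-0.04 with plain library totals, which gave 3 increases and 1 decrease, and 3 increases without 13 h replicate 2). Cat, which encodes catalase, had 142 and 131 CPM at 13 h and 404 and 463 CPM at 24 h (1.66 ± 0.14, adjusted p = 0.000531, and 1.83, adjusted p = 0.0479 with the run as a block). Gclm, the modifier subunit of the enzyme that limits glutathione synthesis, had 168 and 137 CPM at 13 h and 426 and 513 CPM at 24 h (1.62 ± 0.17, and 1.69, adjusted p = 0.0489 with the run as a block). Prdx2, the red cell's main peroxiredoxin, had 98.7 and 93.6 CPM at 13 h and 269 and 237 CPM at 24 h (1.40 ± 0.16). For all 3 genes the 24 h libraries lay above both 13 h libraries.

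**Figure D2:**
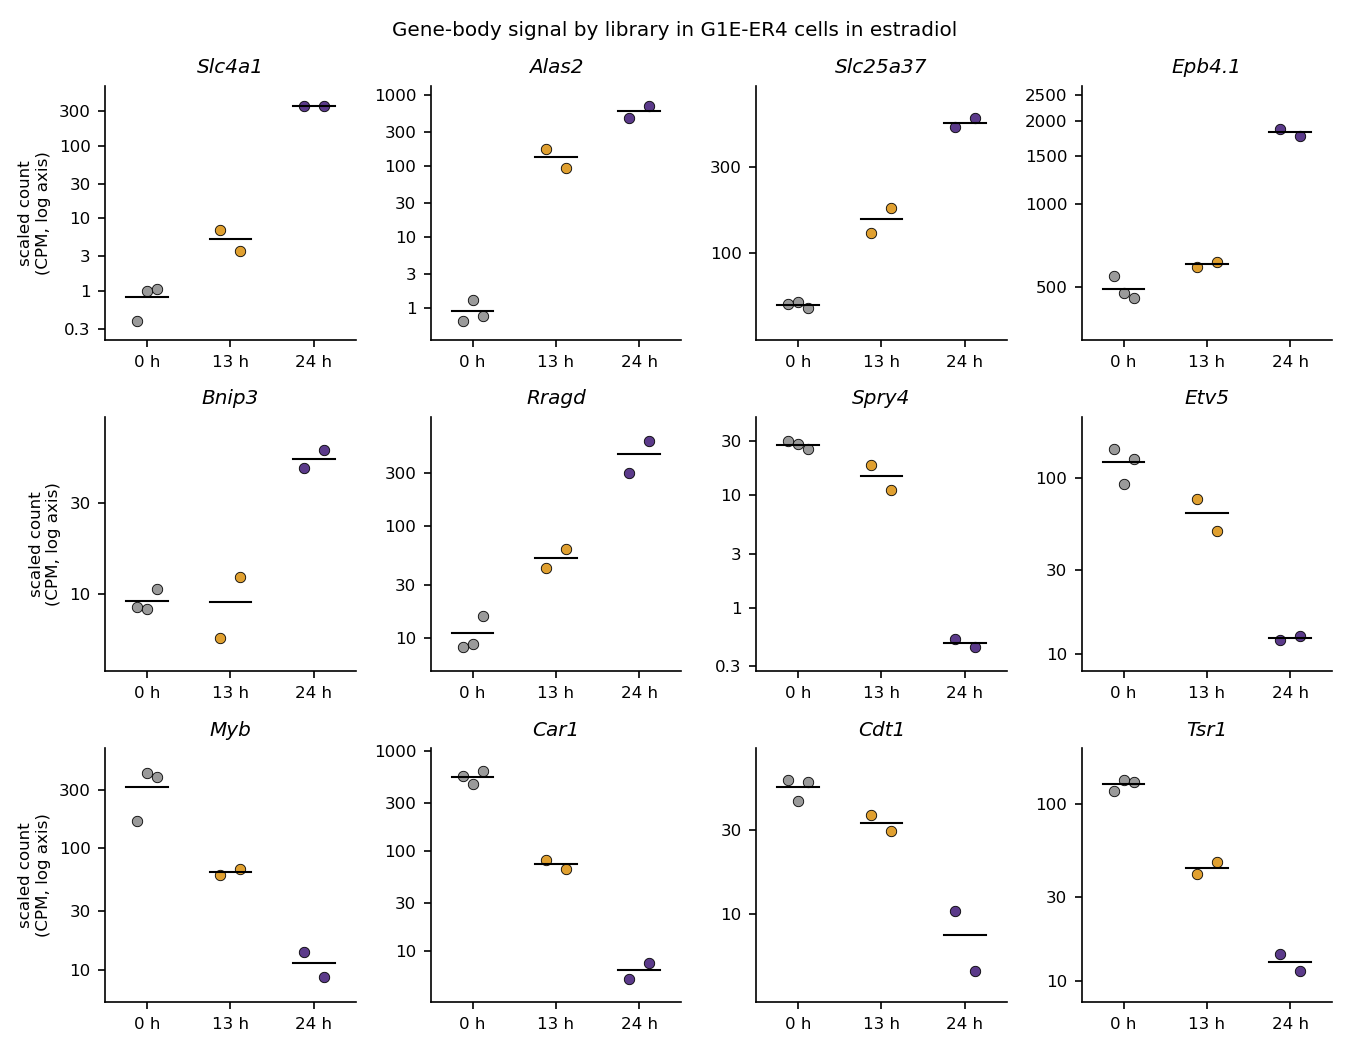
Scaled gene-body counts (CPM, log axis) of 12 genes are plotted for each G1E-ER4 library at 0 h (3 libraries), 13 h (2 libraries) and 24 h (2 libraries) of estradiol, with a bar at each group's mean. Slc4a1, Alas2, Slc25a37, Epb4.1, Bnip3 and Rragd are higher in both 24 h libraries than in either 13 h library, and Spry4, Etv5, Myb, Car1, Cdt1 and Tsr1 are lower in both.

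The genes of the master regulators Gata1, Klf1, Zfpm1 and Gata2 were not called in this interval. Gata1 was at 0.28 ± 0.19, adjusted p = 0.319, and the counts do not separate the fusion from the gene's own locus. Klf1, which activates beta-globin and membrane genes, was at 0.06 ± 0.22, adjusted p = 0.868. Zfpm1, which encodes the GATA1 partner FOG1, had 2340.4 and 2196 CPM at 13 h and 3275 and 2749 CPM at 24 h (0.41 ± 0.38, adjusted p = 0.465). Gata2 had 20.8 and 36.7 CPM at 13 h and 35.4 and 12.2 CPM at 24 h (-0.27 ± 0.48, adjusted p = 0.711), with overlapping groups. Gata1 and Klf1 had log2 fold changes below 0 with plain library totals, at -0.01 and -0.23. Other factors changed, and 7 of 24 tested erythroid factor genes rose, 1 fell and the median was 0.26, while plain library totals gave 4 increases, 4 decreases and a median of -0.03. Klf3, a repressor of the Krüppel-like family that KLF1 activates, had 139.9 and 146 CPM at 13 h and 369.5 and 483 CPM at 24 h (1.58 ± 0.15, adjusted p = 0.000676, and 1.38, adjusted p = 0.0619 with the run as a block). Nfe2, the large subunit of the NF-E2 globin activator, had 141 and 121 CPM at 13 h and 346 and 286 CPM at 24 h (1.27 ± 0.27, adjusted p = 0.00915). Its small Maf partners Mafg (1.26) and Mafk (0.90) rose too, as did Bach1 (1.03), the haem-sensing repressor that competes for the same Maf partners, and Klf13 (0.71). Tal1, of the GATA1 complex, had 236 and 243 CPM at 13 h and 397 and 325 CPM at 24 h (0.59 ± 0.17, adjusted p = 0.0285). Trim58, a ubiquitin ligase of late erythroblasts, fell (-2.67 ± 0.73). Nfe2 lost its call without 13 h replicate 2 (1.17, adjusted p = 0.0571), and Tal1 lost its own without either 13 h library or 24 h replicate 1 (0.43, adjusted p = 0.127) and with plain library totals. The list had 4 increases without 13 h replicate 1, and 4 increases and 3 decreases without 24 h replicate 1.

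GATA1 binds AGATAA or TGATAA and Krüppel-like factors bind CCNCNCCC, so the 250 bases before the start of 5 genes that changed are printed from RefSeq (GRCm38.p6, each read on the gene's strand), with matches to these 3 motifs on either strand in capitals. Alas2 (chrX:150547167-150547416, plus strand), Epb4.1 (chr4:132075314-132075563, minus strand) and Csf2rb2 (chr15:78305722-78305971, minus strand) rose, and Fgf3 (chr7:144838362-144838611, plus strand) and Plk3 (chr4:117133964-117134213, minus strand) fell.
Alas2: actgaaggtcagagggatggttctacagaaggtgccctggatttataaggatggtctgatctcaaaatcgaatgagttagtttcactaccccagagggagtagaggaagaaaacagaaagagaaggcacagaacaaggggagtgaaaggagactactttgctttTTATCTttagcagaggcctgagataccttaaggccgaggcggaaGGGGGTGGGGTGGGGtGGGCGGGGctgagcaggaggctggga
Epb4.1: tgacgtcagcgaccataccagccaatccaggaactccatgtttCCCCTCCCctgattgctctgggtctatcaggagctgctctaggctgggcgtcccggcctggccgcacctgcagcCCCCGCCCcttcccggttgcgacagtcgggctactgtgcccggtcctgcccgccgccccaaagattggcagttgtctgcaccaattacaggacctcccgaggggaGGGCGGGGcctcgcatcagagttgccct
Csf2rb2: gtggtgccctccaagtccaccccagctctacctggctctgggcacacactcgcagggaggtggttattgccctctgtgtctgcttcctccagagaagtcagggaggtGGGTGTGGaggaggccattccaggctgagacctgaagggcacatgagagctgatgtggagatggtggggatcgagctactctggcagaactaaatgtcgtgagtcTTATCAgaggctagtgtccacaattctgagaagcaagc
Fgf3: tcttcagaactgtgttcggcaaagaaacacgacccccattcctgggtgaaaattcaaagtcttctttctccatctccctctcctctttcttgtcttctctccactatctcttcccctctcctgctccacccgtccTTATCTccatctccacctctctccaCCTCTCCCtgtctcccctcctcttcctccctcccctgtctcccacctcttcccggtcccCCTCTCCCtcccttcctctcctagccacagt
Plk3: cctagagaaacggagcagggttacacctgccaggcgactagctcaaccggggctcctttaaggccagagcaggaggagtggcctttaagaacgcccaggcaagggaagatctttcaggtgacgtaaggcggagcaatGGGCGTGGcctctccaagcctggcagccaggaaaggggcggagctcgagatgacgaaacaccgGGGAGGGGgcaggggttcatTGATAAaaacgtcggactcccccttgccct
Alas2 has AGATAA 86 bases before its start on the opposite strand, and 3 of its 4 CCNCNCCC matches overlap in a row. Epb4.1 has 3 CCNCNCCC matches, and Fgf3 and Plk3 hold both kinds of motif although they fell. The 5 genes were chosen by hand, so their matches do not stand for the genes that changed. Over all tested genes a promoter was matched for 11056 of 13825. AGATAA or TGATAA was in 9.99% of those windows, in 7.53% of the 1314 matched genes that rose and in 10.5% of the 1415 that fell. CCNCNCCC was in 62.3%, 70.0% and 64.0% respectively, and the mean GC content was 59.3%, 62.0% and 59.3%. These shares describe the letters in this window, and a window without a match says nothing of the factor.

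Some genes of earlier precursors fell by 24 h, among them Myb, Kit and Erg. In the progenitor list 6 of 15 tested genes fell, 1 rose and the median was -0.27, against 3 decreases with no expression filter and 6 decreases and 0 increases with plain library totals. Myb, the factor that keeps precursors dividing, had 165, 409 and 383 CPM at 0 h, and 59.4 and 67.0 CPM at 13 h and 13.9 and 8.67 CPM at 24 h (-2.49 ± 0.64, adjusted p = 0.0209, and -3.04, adjusted p = 0.0583 with the run as a block). Kit, the kit ligand receptor, had 199.6 and 297 CPM at 13 h and 105 and 46.9 CPM at 24 h (-1.71 ± 0.34, adjusted p = 0.00753). Myc had 70.2 and 90.8 CPM at 13 h and 33.2 and 14.8 CPM at 24 h (-1.75 ± 0.33, adjusted p = 0.00603). All 3 were lower in both 24 h libraries than in either 13 h library, with 24 h replicate 2 the lower of the pair each time. Erg, an ETS factor of stem and megakaryocytic cells, had 43.9 and 9.11 CPM at 13 h and 2.32 and 3.51 CPM at 24 h (-3.18 ± 0.64, adjusted p = 0.00763), with one 13 h library well above the other, and the change was -1.63 (adjusted p = 0.0273) without 13 h replicate 1. Hhex (-1.13) and Lyl1 (-0.84) fell and Ikzf2 (0.84) rose. Myb lost its call without 13 h replicate 2 (-2.40, adjusted p = 0.064) or 24 h replicate 2 (-2.19, adjusted p = 0.133), and without the latter 3 genes of the list fell.

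ERK signalling downstream of Kit switches on ETS factors such as Etv4 and Etv5 and inhibitors such as Spry4 that damp the pathway in turn. Spry4, a Sprouty inhibitor of receptor kinase signalling, had 29.9, 28.2 and 25.4 CPM at 0 h and 18.4 and 11.1 CPM at 13 h and 0.522 and 0.446 CPM at 24 h. Its 24 h values were a small fraction of every earlier value (-4.93 ± 0.32, adjusted p = 0.000142, and -4.69, adjusted p = 0.0233 with the run as a block). Etv5 had 75.7 and 50.2 CPM at 13 h and 12.1 and 12.8 CPM at 24 h (-2.34 ± 0.36, adjusted p = 0.00273, and -2.46, adjusted p = 0.0233 with the run as a block). Etv4, at low counts, had 0.962 and 0.607 CPM at 13 h and 0.0134 and 0.0496 CPM at 24 h (-4.55 ± 0.74, adjusted p = 0.00343, and -4.60, adjusted p = 0.0583 with the run as a block). Spry1 (-1.57) and the immediate early gene Ier2 (-1.07) also fell. The immediate early genes Fos (-2.19 ± 0.75, adjusted p = 0.0590) and Egr1 (-1.73 ± 0.65, adjusted p = 0.0796) were not called. Of 18 tested genes in this list 0 rose, 5 fell and the median was -1.08. The median with the run as a block was -0.32, and 3 to 7 genes fell when single libraries were left out, with the low end without 24 h replicate 2.

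Several genes listed for the epoetin pathway rose, and signalling itself was not measured. Epoetin acts through the erythropoietin receptor, JAK2 and STAT5, whose targets include Cish, Pim1 and Bcl2l1. Of 23 tested genes of this pathway 7 rose, 3 fell and the median was 0.40. Plain library totals gave 5 increases, 3 decreases and a median of 0.11. With the run as a block the median was 0.42 and 0 members were called in edgeR. At an unadjusted p under 0.05 in that fit, 8 members were higher and 2 lower. Epor had 14.2 and 19.6 CPM at 13 h and 26.8 and 24.6 CPM at 24 h and was not called (0.60 ± 0.25, adjusted p = 0.110). Jak2 (1.05 ± 0.20) and Stat5b (0.48) rose. Csf2rb2, which encodes a cytokine receptor beta chain, had 1402 and 1187 CPM at 13 h and 3841 and 3542 CPM at 24 h (1.51 ± 0.20, adjusted p = 0.00177), a value that may include reads of its near-identical neighbour Csf2rb. Bcl2l1, which encodes the survival protein BCL-XL, had 228 and 207 CPM at 13 h and 671 and 451 CPM at 24 h (1.37 ± 0.25, adjusted p = 0.00502). Pim1, a survival kinase, had 130.0 and 116 CPM at 13 h and 322 and 323 CPM at 24 h (1.39 ± 0.20). Cish, the feedback inhibitor, had 74.4 and 59.3 CPM at 13 h and 161 and 179 CPM at 24 h (1.35 ± 0.26). For each of the 4 the groups did not overlap. Lyn (-1.66), the phosphatase gene Ptpn6 (-1.24) and Osm (-1.19) fell. The survival genes parted: Bcl2 had 20.7 and 21.3 CPM at 13 h and 4.77 and 2.33 CPM at 24 h (-2.57 ± 0.37, adjusted p = 0.00234), while Bcl2l1 rose. In the list of cell death regulators 5 of 21 rose and 4 fell (median 0.20; 1, 4 and -0.09 with plain library totals), with the death-promoting Bbc3 (0.90) and Bad (0.56) among the increases and Bmf (-3.36) and Bid (-1.15) among the decreases. The increases of that list numbered 1 without 13 h replicate 1 or either 24 h library, 3 without 13 h replicate 2 and 2 without 0 h replicate 2, and its decreases 2 without 24 h replicate 2.

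DNA replication genes fell together: 28 of 37 tested, with 0 increases and a median of -0.95 against -0.05 for all genes. Cdt1, which licenses origins, had 36.2 and 29.5 CPM at 13 h and 10.4 and 4.78 CPM at 24 h (-2.11 ± 0.32, adjusted p = 0.00277). Pcna, the polymerase clamp, had 39.0 and 45.1 CPM at 13 h and 13.4 and 11.5 CPM at 24 h (-1.75 ± 0.24). Uhrf1, which carries DNA methylation through replication (-1.81), and the helicase gene Mcm6 (-1.36) showed the same direction. Single left-out libraries gave 19 to 27 decreases. With the run as a block the list's median was -0.97 and 0 members were called in edgeR, while 27 were lower at an unadjusted p under 0.05. Mitosis genes rose in 3 of 27 cases, 1 fell and the median was 0.16, shares no higher than the 11.7% and 12.5% of all genes, and plain library totals gave 0 increases, 3 decreases and a median of -0.13. Cenpf (0.80), Nusap1 (0.82) and Ccnb1 (0.58) rose and Cdk1 (-0.45) fell, and 0 or 1 mitosis genes rose without either G1E library, 0 h replicate 2 or 3, 13 h replicate 2 or 24 h replicate 2. Among regulators of the cycle 4 of 27 rose and 6 fell (median -0.30), while plain library totals gave 0 and 14 (median -0.59). E2f1, the S phase activator (-1.43 ± 0.21), and E2f8, an atypical E2F repressor (328 and 189 CPM at 13 h and 126 and 105 CPM at 24 h, -1.16 ± 0.25, adjusted p = 0.00953), fell. Cdkn1b, which encodes the inhibitor p27, had 88.7 and 96.8 CPM at 13 h and 166 and 181 CPM at 24 h (0.90 ± 0.25, adjusted p = 0.0276), and the retinoblastoma gene Rb1 rose (0.67). Cdk6 fell (-0.71 ± 0.22) and Ccnd3, a G1 cyclin of erythroblasts, was not called (0.60 ± 0.21, adjusted p = 0.0599). Cdkn1b lost its call without any 1 of the 4 libraries (adjusted p from 0.0581 to 0.123) and with plain library totals. E2f8 lost its own without 13 h replicate 1 (-0.70, adjusted p = 0.0516) or 24 h replicate 2 (adjusted p = 0.0748), and Cdk6 without any of 6 of the 9 libraries, with a value of -0.30 (adjusted p = 0.329) without 13 h replicate 2. The list of cycle regulators had 0 to 2 increases when any 1 of the 4 libraries of 13 h and 24 h was left out, and 2 decreases without 24 h replicate 2.

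The ribosome lists had the largest shares of decreases among the 31 lists. Ribosome assembly genes fell in 30 of 36 cases with 0 increases (median -1.03), and ribosomal protein genes in 35 of 42 with 0 increases (median -0.99). Tsr1, a factor of small subunit assembly, had 40.2 and 47.0 CPM at 13 h and 14.3 and 11.5 CPM at 24 h (-1.76 ± 0.17, adjusted p = 0.000676, and -1.83, adjusted p = 0.0489 with the run as a block). Polr1a, the large subunit of RNA polymerase I, had 65.7 and 133 CPM at 13 h and 36.5 and 13.0 CPM at 24 h (-2.01 ± 0.46, adjusted p = 0.0127). Nop56, of box C/D snoRNPs (-1.74), and Ncl, which encodes nucleolin (476 and 525 CPM at 13 h and 306 and 246 CPM at 24 h, -0.86 ± 0.14), fell. The precursor ribosomal RNA gene Rn45s held 2.74% and 2.33% of gene-body reads at 13 h and 1.98% and 1.63% at 24 h. These are shares of plain library totals. They lie off the TMM scale, whose factors were lower at 24 h (0.828 and 0.824) than at 13 h (1.01). A change of Rn45s on the TMM scale cannot be read from these shares. Rpl13 had 27.9 and 52.0 CPM at 13 h and 12.1 and 8.39 CPM at 24 h (-1.96 ± 0.29, adjusted p = 0.00246) and Rpl38 changed by -1.90. Ribosomal protein genes have many pseudogene copies, so single values are uncertain. Of translation factors 4 of 34 were lower, near the 12.5% of all genes, and 0 higher, with a median of -0.19. Plain library totals gave 13 lower (median -0.48) and no expression filter 7. The medians with the run as a block were -1.20 and -1.17, with 2 and 0 decreases called in edgeR and 31 and 34 at an unadjusted p under 0.05. Polr1a lost its call without 13 h replicate 2 (-1.40, adjusted p = 0.0756) or 24 h replicate 2 (-1.45, adjusted p = 0.0547), and ribosomal protein decreases numbered 9 without 24 h replicate 2 and 14 without 13 h replicate 2. Assembly decreases numbered 18 without 24 h replicate 2, and those of translation factors 2 without 13 h replicate 2 or 24 h replicate 2 and 8 without 24 h replicate 1.

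Called genes that clear organelles and proteins mostly rose. In the autophagy and mitophagy list 12 of 29 rose and 1 fell (median 0.33). Bnip3, a mitophagy receptor, had 8.54, 8.35 and 10.7 CPM at 0 h and 5.87 and 12.3 CPM at 13 h and 45.6 and 56.6 CPM at 24 h, so the 13 h values straddled those at 0 h and both 24 h values lay above all others (2.50 ± 0.33, adjusted p = 0.00176, and 2.25, adjusted p = 0.0698 with the run as a block). Bnip3l, which encodes NIX and removes mitochondria from reticulocytes, had 63.7 and 95.1 CPM at 13 h and 188 and 191 CPM at 24 h (1.25 ± 0.20, adjusted p = 0.00343). Atg9a, the lipid scramblase of growing autophagosomes, had 40.8 and 52.3 CPM at 13 h and 132 and 143 CPM at 24 h (1.56 ± 0.19), and Wipi1 changed by 1.30. Among the factors that drive lysosome genes Tfe3 rose (0.82) and Tfeb fell (-0.65). Lysosome and proton pump genes rose in 8 of 22 cases with 0 decreases (median 0.58), among them the protease gene Ctsb (96.7 and 202 CPM at 13 h and 344 and 415 CPM at 24 h, 1.34 ± 0.29) and Lamp2 (0.87). Rragd, a Rag GTPase that ties mTORC1 to the lysosome, had 42.7 and 62.8 CPM at 13 h and 303 and 577 CPM at 24 h (3.06 ± 0.39, adjusted p = 0.00166, and 2.20, adjusted p = 0.0804 with the run as a block), with 24 h replicate 2 the highest. Ubiquitin and proteasome genes rose in 12 of 29 cases and 1 fell (median 0.37). Ube2h, an erythroid ubiquitin-conjugating enzyme, had 219.6 and 212 CPM at 13 h and 613 and 601 CPM at 24 h (1.49 ± 0.21, adjusted p = 0.00227, and 1.78, adjusted p = 0.0479 with the run as a block). Ube2r2 (1.53) and the proteasome activator gene Psme4 (1.36) rose too. Plain library totals left 4 increases and 1 decrease, 4 and 0, and 6 and 2 in these 3 lists. Left-out libraries gave 4 to 11, 4 to 10 and 7 to 11 increases, lowest without 24 h replicate 2 (4, 4 and 7), with 6, 4 and 7 without 13 h replicate 1, 5 in the first list and 7 in the third without 13 h replicate 2, and 7 and 5 in the first and second without 24 h replicate 1.

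Other pathways had calls in few genes or both ways, several with shares near the 11.7% of all genes that rose and the 12.5% that fell. Chaperone and stress genes fell in 8 of 21 cases and rose in 3 (median -0.44). Hsp90ab1 (-1.29), the chaperone gene Hspa8 (-1.31) and Trib3 (-1.61) fell, while Eif2ak1, the haem-regulated kinase of translation, rose (0.85). Chromatin genes rose in 4 of 27 cases and fell in 4, with the nuclear lamina gene Lmna up (0.94) and Kat2a (-2.32), Hmga1 (-1.62) and the maintenance methyltransferase gene Dnmt1 (-1.02) down. In glycolysis 3 of 21 rose and 3 fell, with Hk1 up (1.17) and Hk2 (-1.11) and Eno1 (-1.67) down. Respiration genes rose in 3 of 26 cases and fell in 3, and cholesterol genes rose in 2 of 18 with 0 decreases; these shares, and the chromatin increases, are near those of all genes. Genes known to respond to oestrogen rose in 0 of 11 cases and fell in 3, one of them Myc, and the oestrogen receptor gene Esr1 was not called (0.55 ± 0.47). Genes often used as controls rose in 3 of 19 cases and fell in 4. Plain library totals gave 2 increases and 10 decreases for stress, 1 and 5 for chromatin, 2 and 5 for glycolysis, 0 and 9 for respiration, 0 and 2 for cholesterol, 0 and 3 for oestrogen response and 1 and 7 for control genes, and respiration had 1 decrease with no expression filter. These small counts moved by over 1.5 times when single libraries were left out: without 24 h replicate 2, for example, stress genes had 1 increase and 1 decrease, glycolysis genes 0 decreases, respiration genes 0 increases and control genes 0 calls.

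Beyond the lists, the largest decreases that met the naming rule held several signalling genes. Car1, the carbonic anhydrase of early erythroid precursors, had 561, 464 and 626 CPM at 0 h and 81.7 and 65.0 CPM at 13 h and 5.17 and 7.62 CPM at 24 h, a step down at each time (-3.52 ± 0.22, adjusted p = 0.000142, and -3.80, adjusted p = 0.0233 with the run as a block). The growth factor genes Fgf15 (2.40 and 4.89 CPM at 13 h and 0.188 and 0.297 CPM at 24 h, -3.90 ± 0.64, adjusted p = 0.00370) and Fgf3 (1.61 and 1.53 CPM at 13 h and 0.174 and 0 CPM at 24 h, -4.18 ± 0.85, adjusted p = 0.00779) fell. Fgf3 had no read in 24 h replicate 2, and without 24 h replicate 1 its fitted change of -10.08 has no bound of its own. Plk3, a stress kinase of the Polo family, had 8.27 and 5.59 CPM at 13 h and 0.549 and 0.458 CPM at 24 h (-3.78 ± 0.40, adjusted p = 0.000979, and -3.15, adjusted p = 0.0479 with the run as a block). Erv3, an endogenous retroviral gene, had 4.45 and 4.95 CPM at 13 h and 0.214 and 0.223 CPM at 24 h (-4.42 ± 0.78, and -4.72, adjusted p = 0.0362 with the run as a block). Pgpep1l (-4.47), Lhfp (-3.90), Col5a3 (-3.70), Dctd (-3.62), Epha2 (-3.55) and Atp4a (-3.53) completed the set. Atp4a, the gastric proton pump gene, was at 0.53, adjusted p = 0.736 with the run as a block, the opposite sign, and lost its call without 13 h replicate 1 or either 24 h library (adjusted p from 0.0518 to 0.0867). Il1rl1, the IL-33 receptor of mast cells, had 5.83 and 2.57 CPM at 13 h and 0.549 and 0.235 CPM at 24 h (-3.42 ± 0.62). Among the increases, low-level genes such as Kctd19 (0 and 0.117 CPM at 13 h and 2.87 and 1.96 CPM at 24 h, 5.27 ± 0.89), Cd177, Htr1f (3.65), Hspa12a (3.52), Pde1a (3.44), Dpep1 (2.95), Olah (2.82) and Ltb4r1 (2.82) followed Slc4a1. Kctd19 had 10 reads in all at 13 h and none in replicate 1, so the fitted 10.67 without 13 h replicate 2 is no bound.

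**Figure D3:**
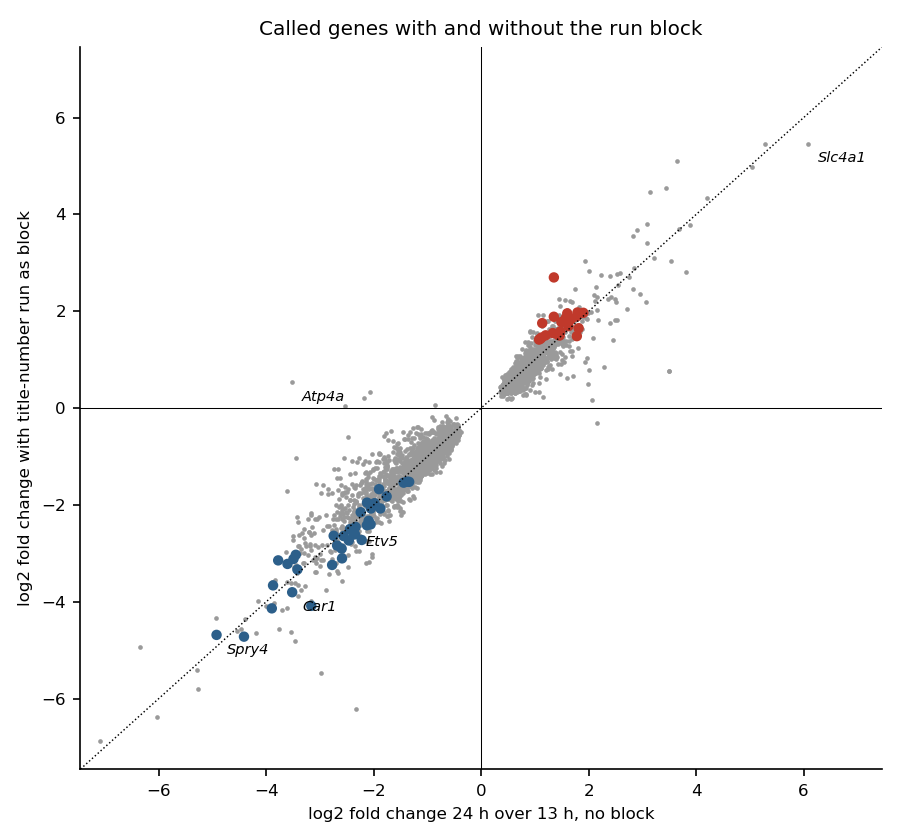
Each point is 1 of the 3349 genes called between 13 h and 24 h, with its log2 fold change in the fit of 4 groups on the x axis and its log2 fold change with the run of title numbers as a block on the y axis; coloured points keep their call and the dotted line marks equal values. Nearly all points (3343) keep their sign, 58 keep their call, and Atp4a lies on the other side of 0.

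Sites of initiation were counted in the deposited table of dREG peaks, which marks promoters and enhancers by divergent polymerase. It lists 42114 elements, whole peaks or single strands of a peak. Of 35158 tested elements 1858 rose (5.28%) and 2749 fell (7.82%), or 764 and 2906 with plain library totals. Decreases outnumbered increases among intergenic elements and antisense elements within genes, while the balance at gene starts turned with the scaling. Of 12973 elements that the authors place at a gene start, 1019 rose (7.85%) and 662 fell (5.10%). This split turned to 203 and 384 with the gene-body scaling and 305 and 762 with plain library totals. With the run as a block it was 181 and 186. Of 10044 intergenic elements 194 rose (1.93%) and 1126 fell (11.2%), and their median log2 fold change was -0.57 against 0.07 at starts. Elements the authors class as Antisense within genes split in the same way, with 41 of 4198 higher (0.977%), 394 lower (9.39%) and a median of -0.68. Elements classed as Sense rose in 604 and fell in 567 of 7943 cases, a split that turned to 323 and 590 with plain library totals, 249 and 402 with the gene-body scaling and 27 and 172 with the run as a block. With the run as a block 240 elements rose (0.683%) and 776 fell (2.21%), or 2.89% in all, 834 of the 4607 called elements kept their call, and the intergenic split was 29 and 351. With title numbers in 2 sets (1501 to 1663, 1864 to 2005) as the block, 4 elements rose (0.0114%) and 65 fell (0.185%). Without 24 h replicate 2, 31 intergenic elements rose and 199 fell, and 250 elements rose and 401 fell in all; without 13 h replicate 2, 13 h replicate 1 or 24 h replicate 1 the totals were 608 and 1506, 772 and 1560, and 1213 and 1718.

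Coordinates of elements are those of the deposited table (mm9). At the start of Slc4a1 the element at chr11:102224550-102227451 had 2.08 and 1.61 CPM at 13 h and 78.9 and 110.3 CPM at 24 h (5.68 ± 0.49, adjusted p = 8.74e-05, and 5.17, adjusted p = 0.00361 with the run as a block). A second element 8805 bases away, at the start of the noncoding gene Bloodlinc (chr11:102235400-102238601), had 7.42 and 3.91 CPM at 13 h and 70.4 and 74.6 CPM at 24 h (3.68 ± 0.48, adjusted p = 0.00115, and 4.56, adjusted p = 0.00361 with the run as a block). Both were low before estradiol, at 0.214, 0.373 and 0.416 and 0.455, 0.497 and 0.265 CPM, and both were highest at 24 h. Within 100 kb of the Slc4a1 start 4 of 13 tested elements rose and 0 fell. Near Epb4.1 7 of 11 rose and 0 fell, near Bcl2l1 7 of 19 rose and 1 fell, and near Rragd 4 of 14 rose and 0 fell. The shares over all elements were 5.28% and 7.82%. Elements that rose near Epb4.1, Bcl2l1 and Rragd included single strands of a peak classed as Sense, inside the gene and on its own strand. At Epb4.1 the other strand of such peaks was not called (0.64, adjusted p = 0.591, and -1.87, adjusted p = 0.116, for example). Counts of such elements may include polymerase crossing the gene body, which was not tested, so they are no separate evidence of initiation. With the run as a block 2 near each of Slc4a1, Epb4.1 and Bcl2l1 rose and none near Rragd, Gata1 or Klf1 was called. The increases near Slc4a1 numbered 2 and those near Rragd 1 without either 13 h library, those near Rragd 2 without 24 h replicate 2, and those near Bcl2l1 4 without 13 h replicate 2. Near Gata1 and Klf1, whose gene bodies were not called, 4 of 24 and 4 of 23 elements rose, and 0 or 1 near either rose without either 13 h library or 24 h replicate 2. Plain library totals left 3 and 1 of these, and the gene-body scaling 2 and 1, with 4 near Bcl2l1. An element near Arhgdib, which encodes a GTPase inhibitor of blood cells, at chr6:136894750-136895351 had 7.16 and 8.37 CPM at 13 h and 87.7 and 66.8 CPM at 24 h (3.31 ± 0.33, adjusted p = 0.000164).

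On the falling side the intergenic stretch between Hbs1l and Myb held an element among the 8 largest decreases. The element at chr10:20961300-20964301, 80510 bases from the Myb start, had 6.74, 6.77 and 7.75 CPM at 0 h, and 14.7 and 8.87 CPM at 13 h and 0.455 and 0.279 CPM at 24 h (-4.98 ± 0.56, adjusted p = 0.000382, and -5.13, adjusted p = 0.00149 with the run as a block). Its 13 h values lay above those at 0 h, in replicate 2 by little, and that step was not tested for elements. The G1E libraries had 16.9 and 5.44 CPM. This element was near 0 at 24 h, and the Myb gene body was already below all its 0 h values at 13 h. Of 15 tested elements within 100 kb of the Myb start 8 fell and 0 rose. With the run as a block 8 fell, but not the same 8. The element at the Myb start was among those called only with the block (-1.96, adjusted p = 0.0132, against -1.31, adjusted p = 0.0536). An intergenic element upstream was among those that lost their call with it (-1.46, adjusted p = 0.0752). Fewer fell without 13 h replicate 1 or 24 h replicate 2. Near Spry4 10 of 10 tested elements fell, with the one at the gene's start at 28.3 and 19.2 CPM at 13 h and 2.06 and 1.58 CPM at 24 h (-3.70 ± 0.31, adjusted p = 6.79e-05, and -3.72, adjusted p = 0.00195 with the run as a block), and 3 of the 10 were called with the run as a block and 4, 5 and 2 without 13 h replicate 1, 24 h replicate 1 and 24 h replicate 2. Near E2f8 10 of 16 fell, near Fgf3 7 of 13, with 1 and 2 decreases called without 24 h replicate 2 and 3 near E2f8 without 13 h replicate 1, and with 1 and 5 with the run as a block. Gata2, not called over its body, had 3 of 14 nearby elements lower, each 1 strand of a peak whose other strand was not called. The largest of these decreases was at chr6:88094250-88096001, 52657 bases from the Gata2 start (2.02 and 1.70 CPM at 13 h and 0.187 and 0.248 CPM at 24 h, -3.08 ± 0.62, adjusted p = 0.00780, and -4.18, adjusted p = 0.00829 with the run as a block). The other strand of that peak was at -0.03, adjusted p = 0.989. With the run as a block or without 13 h replicate 2, 1 element near Gata2 fell, and 0 fell without 24 h replicate 2.

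**Figure D4:**
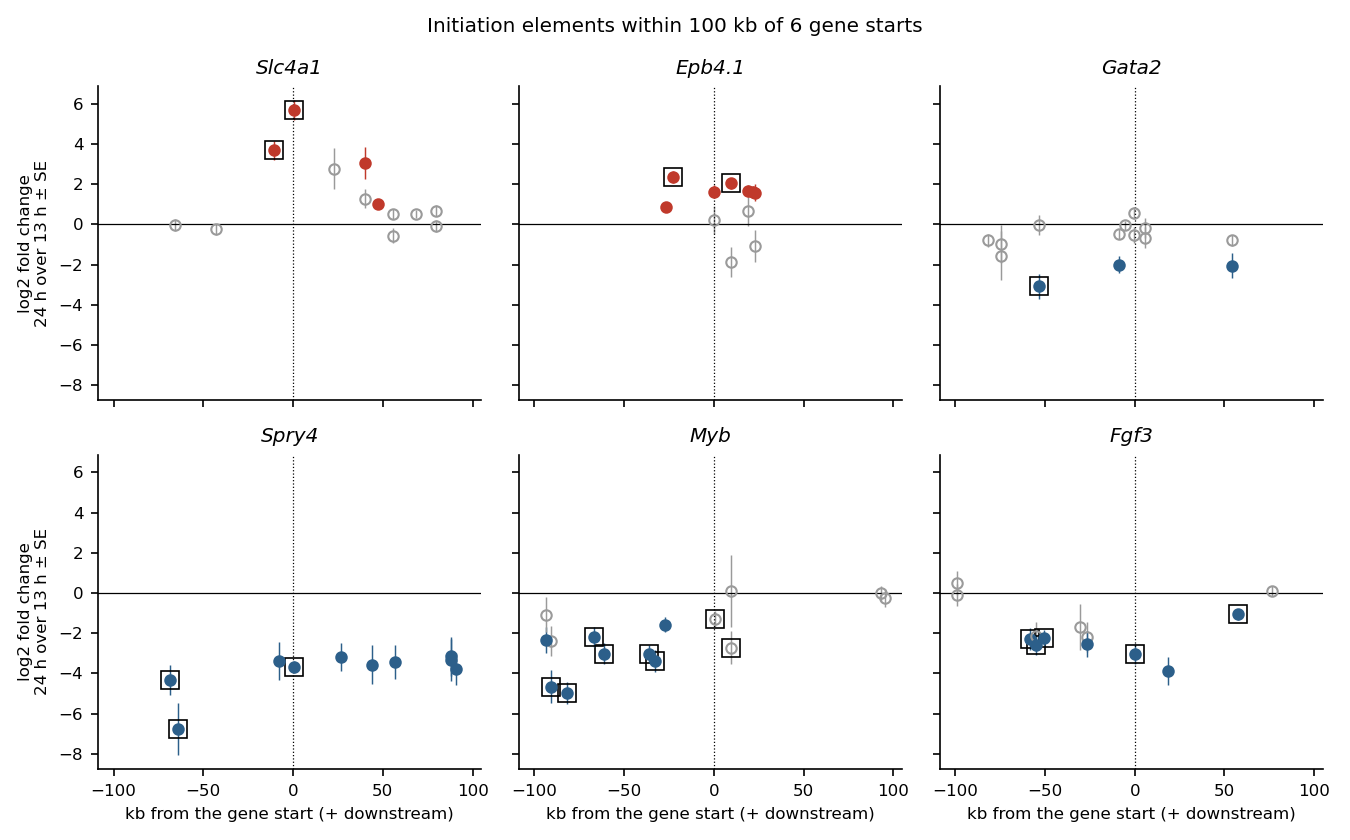
The log2 fold change of each tested element (24 h over 13 h, bars are SE) is plotted against its distance in kb from the start of Slc4a1, Epb4.1, Gata2, Spry4, Myb and Fgf3, with called elements filled and elements called with the run as a block drawn as squares. The 10 elements near Spry4 and 8 of the 15 near Myb lie below 0 and are called, and 7 of the 11 near Epb4.1 lie above 0 and are called.

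The change from 13 h to 24 h was compared with the change from 0 h to 13 h in 1 contrast per gene; both changes share the 13 h libraries. The second change was above the first for 349 genes (2.52%) and below it for 668 (4.83%), 7.36% in all, or 233 and 922 with plain library totals. Dok7, an adaptor of receptor kinase signalling at the neuromuscular synapse, had 0.0126, 0.0258 and 0.0275 CPM at 0 h, and 2.63 and 4.78 CPM at 13 h and 0.402 and 0.297 CPM at 24 h, so it peaked at 13 h (first change 7.25, second -3.40, difference -10.66, adjusted p = 0.000225). Its 0 h values were near 0, so the fitted sizes of its first change and of the difference are uncertain. The collagen gene Col5a3 (first 6.66, second -3.70, difference -10.36, adjusted p = 0.000147) and Atp4a (difference -10.57, adjusted p = 0.00272, from 0.0504, 0 and 0 CPM at 0 h, so its fitted size is no bound) had the same shape. The second change of Spry4 was below the first (first -0.92, second -4.93, difference -4.01, adjusted p = 0.000912). The second change of Bnip3 was above the first (first -0.02, second 2.50, difference 2.51, adjusted p = 0.0249). Lcp1, the actin bundler L-plastin, was already low at 13 h, with 12, 17.5 and 19.8 CPM at 0 h and 0.610 and 0.933 CPM at 13 h and 0.898 and 0.880 CPM at 24 h (first -4.40, difference 4.60, adjusted p = 0.00101). The larger part of the Lyl1 change came first as well (first -4.62, second -0.84, difference 3.77, adjusted p = 0.000411), and Thrb, a thyroid hormone receptor, had a difference of 3.99, adjusted p = 0.0326. The Thrb call was lost without either 13 h library, either G1E library or 0 h replicate 3 (adjusted p from 0.0543 to 0.198), its value was 2.61 (adjusted p = 0.0256) without 24 h replicate 2, and over all genes 57 were above and 232 below without 13 h replicate 1, 204 and 389 without 13 h replicate 2, 153 and 390 without 0 h replicate 3, and 221 above without 0 h replicate 2. With the run as a block 5 were above and 33 below.

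Reads at the start and over the body of the same gene were set against each other for 6116 genes. The start gained on the body from 13 h to 24 h in 165 (2.7%) and lost in 72 (1.18%). The balance of the 2 directions moved with the scaling and the block, with 403 and 37 for plain library totals, 125 and 100 for DESeq2's size factors (688 and 748 in edgeR at an unadjusted p under 0.05) and 29 and 32 with the run as a block. Galnt10, which starts O-linked glycans, had gene-body values of 179 and 162 CPM at 13 h and 72.9 and 36.6 CPM at 24 h (log2 fold change -1.64), while its start element changed by 1.49 (adjusted p = 0.0210) and the difference was 3.11, adjusted p = 0.000481. Start and body therefore moved in opposite directions at Galnt10. The nucleoside transporter gene Slc29a2 (3.35, adjusted p = 0.0103) and Fgf15 (2.67, adjusted p = 0.0204) had bodies that fell relative to their starts. Rph3al (-2.37, adjusted p = 0.0204), Trip6 (-2.36, adjusted p = 0.0398), Relb, an NF-kappaB subunit (-2.10, adjusted p = 0.0236), and Bnip3l (-1.18, adjusted p = 0.0205) had bodies that gained on their starts. Without 24 h replicate 2, edgeR called 1 gene up and 0 down (562 and 263 at an unadjusted p under 0.05), without 13 h replicate 2 the counts were 5 and 2, without 24 h replicate 1 21 and 6, without 0 h replicate 3 73 and 28, and without either G1E library 71 or 72 and 24. Of the 7 genes named here for their starts, Galnt10 alone kept its call both without 24 h replicate 2 and without 13 h replicate 2, while Trip6 was at -1.25 (adjusted p = 0.385) without 24 h replicate 2.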

How the data were processed

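PRO-seq libraries of G1E and G1E-ER4 cells were analysed from 2 deposited tables. Per the file headers, the authors deposited raw read counts per gene body for 24391 genes and raw read counts for 42114 dREG elements. Alignment was with BWA to mm9, per the submitters' processing notes. For the version of BWA, the counter, the annotation and strand the sources used here give nothing, so overlapping genes, antisense genes and near-identical copies are uncertain.

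Fits used edgeR 4.0.16 (R 4.3.3, limma 3.58.1) with TMM scaling, the default expression filter and the robust quasi-likelihood test on 4 group means over all 9 libraries, which left 5 residual degrees of freedom. Benjamini-Hochberg adjusted p-values under 0.05, over all features tested, made a call, and errors are standard errors of the log2 fold change. Scripts were tested on simulated data. DESeq2 1.42.0 served as an alternative, and figures used Python 3.11.15 with matplotlib 3.10.9. Read totals per library limit the precision, and no molecular identifiers are mentioned in the labels.

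The 31 gene lists and the members named were chosen with earlier results of these data known. Genes named were the 12 largest increases and decreases among called genes with 50 or more reads on average and no overlap of the groups, up to 5 called genes per list, the 3 largest each way of the other tests, and a set named always. For elements the rule took the 8 largest changes each way and up to 4 called elements within 100 kb of a named gene's start. Further list members, and counts of elements near starts, were named after their values were seen. Some genes that the rules name are not reported here. Promoters came from RefSeq (GRCm38.p6).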

Additional observations from a re-analysis of the deposited data

How the results depend on the processing

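The test, scaling, filter, block and libraries were each changed in turn, and the cause of each shift below was not tested. DESeq2's size factors and no expression filter moved none of the counts over all genes, elements or starts by over 1.5 times, but without the filter the small counts of several lists did (iron increases 2, progenitor decreases 3, translation decreases 7 and mast cell decreases 0, for example). Plain library totals gave 641 genes higher and 3082 lower, 764 elements higher, 403 start gains and 37 start losses, and 7 of 31 lists with a median above 0 in place of 14. The DESeq2 Wald test gave 843 genes with a higher second change. With only the 4 libraries of 13 h and 24 h, 850 genes rose and 733 fell, and the calls of Fgf3, Polr1a, Ank1, Tal1 and Cdk6 were lost (adjusted p-values from 0.0553 to 0.105). With the gene-body scaling 569 elements rose. With the run of title numbers as a block, 22 genes rose and 37 fell, 240 elements rose and 776 fell, 5 and 33 genes had a higher or lower second change, and 29 starts gained and 32 lost on their bodies. With the title numbers in 2 sets as a block, an alternative chosen after seeing the data, the same counts were 6 and 24, 4 and 65, 5 and 30, and 0 and 0, the last being 214 and 187 in edgeR at an unadjusted p under 0.05.

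Same-numbered replicates of 13 h and 24 h had deviations that correlated at -0.14, so the numbers were not taken to pair these samples. Replicates 1 and 2 of 0 h and 13 h, whose same numbers share a run, correlated at 0.46 and 0.44. Across numbers the values were -0.46 and -0.44, which mirror these because 13 h has 2 libraries. The main fit, which also gave the contrast of the 2 changes, did not pair 0 h with 13 h. What the shared deviation stands for was not tested. A replicate block gave 1073 genes higher, 115 and 355 genes with a higher or lower second change, and 100 start gains and 40 start losses. It ended the calls of Ank1, Tal1, Cdk6 and Tfrc, and of Thrb and Trip6 in their tests. The crossed block, with 24 h replicate 1 set beside number 2, called 1332 genes higher and 1489 lower.

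Leaving out single libraries gave 671 to 1613 genes higher and 562 to 1746 lower, 250 to 2350 elements higher and 401 to 3397 lower, 57 to 319 and 232 to 703 genes with a higher or lower second change, and 1 to 222 and 0 to 100 start gains and losses. The low ends came without 24 h replicate 2, or for the second change without 13 h replicate 1.

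Few values changed sign, and apart from Atp4a none of these was called. Gata1 was at -0.0054 with plain library totals. Klf1 was at -0.23 with plain library totals, -0.16 with the run as a block, -0.16 with the 2 sets, and from -0.077 to 0.23 when single libraries were left out (below 0 without 13 h replicate 1 or 24 h replicate 1). Gata2 ran from -1.26 to 0.30 over left-out libraries (above 0 without 13 h replicate 2 or 24 h replicate 2). Atp4a was at 0.53 with the run as a block and 0.65 with the 2 sets. The Arhgdib gene body was at -0.15 with plain library totals and ran from -0.20 (without 24 h replicate 1) to 0.40 over left-out libraries. With no expression filter the calls of Alas2, Myb, Kit, Erg, Polr1a, Ncoa4 and Il1rl1 were lost, with adjusted p-values from 0.0528 to 0.149. Lists with 0 calls in 1 direction in edgeR had 0 or 1 gene there at an unadjusted p under 0.05, except cholesterol with 2, and 0 or 1 in the DESeq2 Wald test. Read depth limits low genes such as Fgf3, Etv4 and Kctd19, whose lower group held 13, 5 and 10 reads.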
